A study of Rattus norvegicus with 12 samples.

Results

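The actins and a set of proteins that bind them were followed in the livers of alcohol-drinking and water-drinking rats. The set names 10 genes: the cytoplasmic actins Actb and Actg1, the smooth muscle actin Acta2, the actin-related proteins Actr2 and Actr3, the filament-severing cofilin Cfl1, the monomer-binding proteins Pfn1, Tmsb4x and Tmsb10, and Hip1r, which ties actin to clathrin-coated pits. Each gene was taken by its name in the deposited table of RPKM values (read counts scaled to the length of the transcript and the size of the library), and where a gene had several rows, the row with the highest mean over all livers stood for it. Of the 10 genes, 9 had at least 1 row by this rule, with 15 rows in all among the 34391 of the table. The level of Acta2 is not analysed here.

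All 12 animals were female rats of the inbred alcohol-preferring line iP10a, and RNA came from whole liver, 1 library per animal. The 6 EtOH animals chose freely between water and bottles of 10%, 20% and 30% ethanol by volume for 23 weeks, and the 6 Control animals had water alone. At collection 11 animals were 38 weeks old and 1, EtOH animal 6, was 39 weeks old. An inbred line bred for drinking stands for 1 genotype, and how much each animal drank before its liver was taken is not used here.

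Cytoplasmic actin cycles between monomers and filaments. The Arp2/3 complex, built around Actr2 and Actr3, starts new branches on existing filaments, cofilin severs old ones, profilin loads monomers for growth, and the thymosins hold monomers in reserve. In hepatocytes filaments line the cell cortex and the bile canaliculi and pull on endocytic pits, where Hip1r joins filaments to the clathrin coat. Free actin monomers also hold back the coactivators of serum response factor (Srf), which binds a short element called the CArG box in the promoters of many actin genes and of Srf itself, so that actin genes take part in a feedback on their own transcription.

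Parts of the promoters of Actg1, Hip1r and Srf are printed, because Actg1 and Hip1r had the largest fold changes among the members and the CArG box is the element of that feedback. RefSeq (GRCr8 build) gave a promoter for 9 of the 10 genes; Actb had no entry. The table holds 250 bases before and 50 bases after each gene's start, and the 120 bases just before the start are printed 5′ to 3′ on the strand of the gene, with CArG boxes in capitals. The windows lie at chr10:106120952-106121071 (minus strand) for Actg1, chr12:38279655-38279774 (minus strand) for Hip1r and chr9:21923956-21924075 (plus strand) for Srf.
Actg1: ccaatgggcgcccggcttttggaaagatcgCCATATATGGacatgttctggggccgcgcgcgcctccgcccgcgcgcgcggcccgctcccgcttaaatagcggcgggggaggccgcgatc
Hip1r: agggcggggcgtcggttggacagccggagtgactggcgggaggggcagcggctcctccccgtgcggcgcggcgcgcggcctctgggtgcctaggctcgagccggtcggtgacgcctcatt
Srf: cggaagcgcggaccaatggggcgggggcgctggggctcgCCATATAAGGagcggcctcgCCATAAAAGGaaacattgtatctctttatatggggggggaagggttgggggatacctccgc

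Both strands of all 33469 promoters of the table were searched for the CArG box in its strict form, and 1.64% of them held it. That form is CCWWWWWWGG, where W is A or T. Variants of it were not searched, so a promoter without a match is not shown to lack the element. Among the 9 members with an entry, Acta2 included, the strict form was found in 1, Actg1, where it begins 90 bases before the start. The Srf promoter held 2, beginning 81 and 61 bases before the start. The letters TATAAA, searched on both strands, were in 14.2% of all promoters and in 0 of the 9. A match describes these letters in this window and shows neither binding nor its effect.

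Depth and scaling touch every value that follows. Whole reads were recovered from the RPKM values: 2610238 to 4318141 per Control liver and 3945593 to 6030028 per EtOH liver, so that the EtOH libraries were deeper. Alb, the albumin gene and a marker of hepatocytes, lay between 57999 and 92323 RPKM in the 12 livers. Median correlations of a liver with its own group ran from 0.930 to 0.949, and no 2 livers held identical values. RPKM was compared after quantile normalization of log2(RPKM + 0.5) by limma, with p-values adjusted by Benjamini-Hochberg over all 21718 transcripts above 0 in at least 1 liver, and a transcript is called at an adjusted p below 0.05. Without normalization the median of the 3817 transcripts with a mean of at least 10 RPKM lay 0.14 below 0 on the log2 scale in EtOH livers, against 0.00049 with it, and the fold changes of abundant genes move with that shift. The 6 animals of a group are separate animals. A p-value sets the difference between the groups against the spread between animals, which limma moderates by a trend over all transcripts.

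Of the 9 members measured, 3 were called, and all 3 fell in EtOH livers: Actg1, Hip1r and Actb. None was called higher, by limma or by limma voom on recovered reads. Limma voom scaled each liver by its total reads, with no further normalization between livers. Its fold changes of the members therefore lie near those without normalization (Actg1 at -0.96 and -0.97, Cfl1 at -0.12 and -0.14). Over all transcripts tested, 2.42% were called, 1.29% lower and 1.13% higher. An unadjusted p below 0.05 was reached by 6 of the 9, Pfn1 lower and Actr2 and Actr3 higher besides the 3 called, where 15.5% of all transcripts reached it. In RPKM as deposited, the highest EtOH liver was below the lowest Control liver for 4 members, Actg1, Actb, Hip1r and Pfn1. That separation was found in the same direction in 2.43% of all transcripts, whatever their level. Before normalization abundant transcripts lay lower in EtOH livers: of 3817 with a mean of at least 10 RPKM, 1034 had a log2 difference above 0. The share at the levels of these members was not computed. The tissue was sampled in bulk, so fewer cells of a type and less RNA per cell cannot be told apart.

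**Figure D1:**
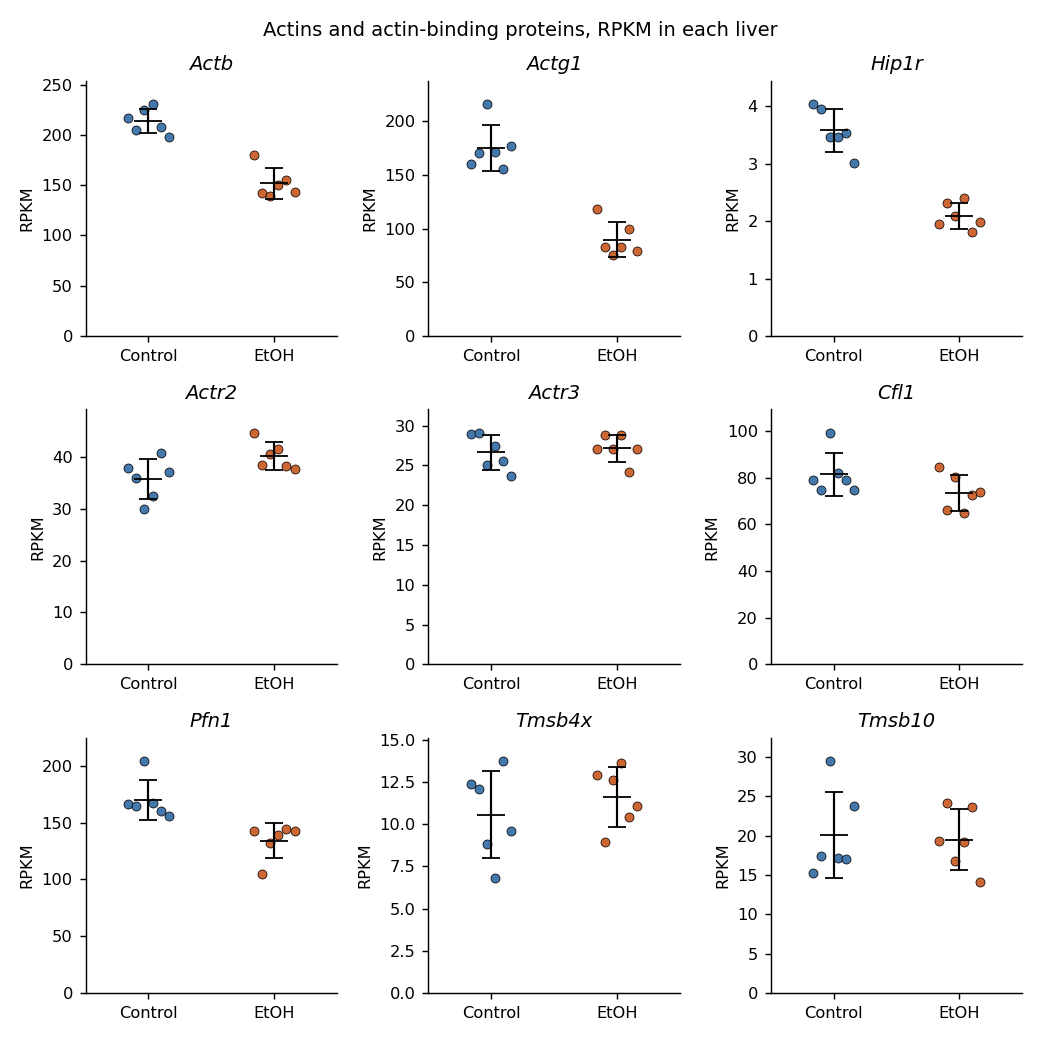
RPKM of the 9 measured members (vertical axes, each starting at 0) in the 6 Control and 6 EtOH livers; each point is 1 liver, the long dash is the group mean and the bars are 1 SD. The groups do not overlap for Actb, Actg1, Hip1r and Pfn1, and they overlap for the other 5 genes.

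Actg1, the gamma isoform of cytoplasmic actin, showed the largest fall. The 6 Control livers ranged from 156 to 216 RPKM with a median of 171, and the EtOH livers from 75.3 to 118 with a median of 83.2. The groups did not overlap: the highest EtOH liver, animal 1, stayed below the lowest Control liver, animal 5. The mean fell from 175 ± 21.5 to 89.8 ± 16.2 RPKM (SD, n = 6 each), so that EtOH livers held 51.3% of the Control level. That share is in RPKM as deposited. After quantile normalization the log2 fold change was -0.83 (SE 0.11, limma adjusted p = 0.0030), against -0.97 without it. Between 682 and 1591 reads per liver stood behind these values, from the row at chr10:109773491-109776334 in the positions of the table, whose build the sources used here do not name. A further row of Actg1 reached at most 1.75 RPKM, was above 0 in 3 livers of each group and was not called (adjusted p = 0.65).

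Actb, the beta isoform, was the most abundant member per length in both groups. It ranged from 198 to 231 RPKM in Control livers (median 212) and from 139 to 180 RPKM in EtOH livers (median 147). All 6 EtOH livers were below all 6 Control livers, with EtOH animal 1 again the nearest to them. The mean fell from 214 ± 12.3 to 152 ± 15.2 RPKM (SD, n = 6 each), to 70.9% of the Control level in RPKM as deposited. After quantile normalization the log2 fold change was -0.35 (SE 0.08, limma adjusted p = 0.042), against -0.50 without it. This call lies close to the threshold. Without any single liver other than EtOH animal 1 the adjusted p of Actb was between 0.051 and 0.088, and without EtOH animal 1 it was 0.0074, while its log2 fold change stayed between -0.42 and -0.32. The row lies at chr12:12047070-12050039 in the table, with 791 to 1186 reads per liver.

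The coding sequences of Actb and Actg1 are near-identical, and the sources used here do not say how reads that match both were assigned, so the split between them is uncertain. Their sum depends on that split only through the unequal lengths of the 2 transcripts. It lay between 364 and 441 RPKM in Control livers and between 214 and 298 RPKM in EtOH livers, again with no overlap. The mean sum was 389 ± 28.4 RPKM in Control livers and 242 ± 31.1 RPKM in EtOH livers (SD, n = 6 each).

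The rows of the 2 isoforms did not fall by the same amount, a difference that rests on the uncertain split of reads between them. Within each Control liver Actg1 stood at 0.740 to 0.961 of Actb, and within each EtOH liver at 0.542 to 0.654, so that the groups were apart in this ratio too. The mean log2 ratio was lower by 0.47 in EtOH livers (difference -0.47, 95% interval -0.65 to -0.29, two-sided exact permutation test over 924 regroupings, p = 0.0022, the smallest that 6 against 6 livers allow; adjusted over 3 pairs, p = 0.0065). A ratio within a liver does not move with a single scaling factor for that liver, and on quantile-normalized values the difference was -0.48. Actg1 made up 44.9% ± 2.71 of the summed cytoplasmic actin in Control livers and 37.0% ± 1.93 in EtOH livers (SD, n = 6 each). The other pairs of related members did not pass the test, as given with each below.

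**Figure D2:**
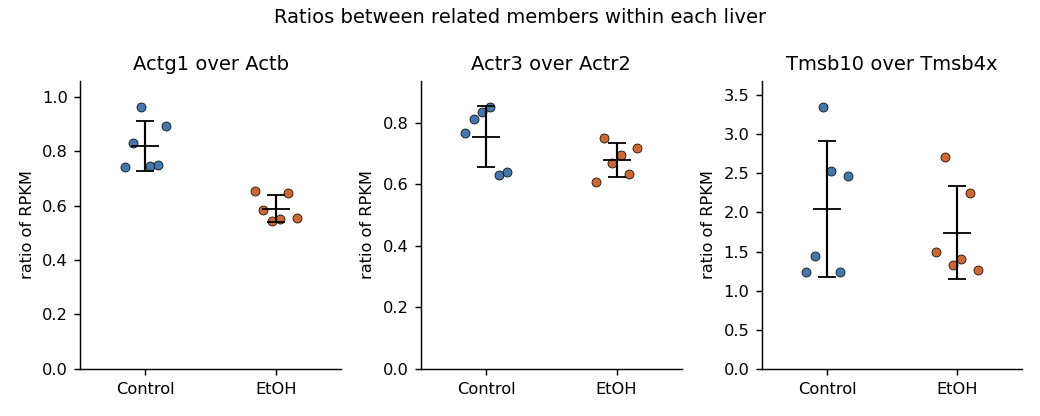
Ratio of RPKM between related members within each liver (vertical axes, starting at 0), for 6 Control and 6 EtOH livers; points are livers, long dashes means and bars 1 SD. Only for Actg1 over Actb do the groups lie apart, with EtOH livers at 0.542 to 0.654 and Control livers at 0.740 to 0.961.

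Hip1r, the huntingtin-interacting protein 1 related protein that links actin filaments to clathrin coats, was the member of lowest level. It lay between 3.02 and 4.04 RPKM in Control livers (median 3.51) and between 1.82 and 2.40 RPKM in EtOH livers (median 2.04). No EtOH liver reached a Control liver. The mean was 3.58 ± 0.373 RPKM in Control and 2.09 ± 0.222 RPKM in EtOH livers (SD, n = 6 each), 58.4% of the Control level in RPKM as deposited. After quantile normalization the log2 fold change was -0.62 (SE 0.11, limma adjusted p = 0.018). Because of the pseudocount of 0.5, this log2 value understates the ratio of so low a gene, and it was -0.71 with a pseudocount of 0.1. The level rests on 39 to 67 reads per liver, from the row at chr12:33714226-33742792. The further row of Hip1r was above 0 in 1 EtOH liver alone, at 1.12 RPKM, and its number of reads is not known.

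Hip1r works with clathrin and its adaptors, and their genes were looked at as a list of 15, of which 14 were measured. None was called by limma; 1 of the 14 passed an unadjusted p of 0.05, and limma voom on recovered reads called none either. That gene was Ap2a2, a subunit of the AP2 adaptor complex, at 24.0 ± 2.13 RPKM in Control and 25.3 ± 2.28 RPKM in EtOH livers (SD over 6 animals each, log2 fold change 0.23, SE 0.06, limma adjusted p = 0.083). Ap2a1, another AP2 subunit, named after its values were seen, lay between 12.2 and 15.6 RPKM in Control livers and between 9.67 and 11.7 RPKM in EtOH livers, with no overlap (log2 fold change -0.17, SE 0.08, limma unadjusted p = 0.052, adjusted p = 0.33). The median log2 fold change of the 14 was 0.03, beside 0.00019 over all transcripts tested. Whether Hip1r differs from its partners in response was not tested.

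Actr2 and Actr3, the actin-related proteins at the core of the Arp2/3 complex, did not fall with the actins. Actr2 ranged from 30.0 to 40.6 RPKM in Control livers (median 36.4) and from 37.7 to 44.6 RPKM in EtOH livers (median 39.4). All 6 EtOH livers were above the Control mean, but only 2 of them were above every Control liver. The means were 35.6 ± 3.85 and 40.1 ± 2.63 RPKM (SD, n = 6 each), and the log2 fold change of 0.33 (SE 0.09) missed the threshold (limma adjusted p = 0.085). It passed as higher when only transcripts with a mean of at least 1 RPKM were tested (limma adjusted p = 0.049). It also passed when the rows of each gene were summed (limma adjusted p = 0.047). The further row of Actr2 was at 0 in all livers, so summing left its own RPKM unchanged. Without normalization the log2 fold change was 0.18 (limma adjusted p = 0.25), and by limma voom it was 0.19 (adjusted p = 0.23). None of the 12 fits that left out 1 liver called Actr2.

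Actr3 lay between 23.7 and 29.1 RPKM in Control livers (median 26.5) and between 24.2 and 28.8 RPKM in EtOH livers (median 27.1). Its groups overlapped almost wholly, at means of 26.6 ± 2.23 and 27.2 ± 1.68 RPKM (SD, n = 6 each). The log2 fold change was 0.18 (SE 0.07, limma adjusted p = 0.25) after quantile normalization and 0.03 without it. The ratio of Actr3 to Actr2 was 0.755 ± 0.0982 in Control and 0.679 ± 0.0537 in EtOH livers (SD, n = 6 each). The mean log2 ratio differed by -0.14, with a 95% interval from -0.35 to 0.06 (two-sided exact permutation test, p = 0.14; adjusted over 3 pairs, p = 0.21). A further row of each of the 2 genes was at 0 in all livers.

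The complex has further subunits, and 6 of the 8 on the list were measured. None was called by limma, with 1 at an unadjusted p below 0.05. That was Arpc4, which lay between 20.4 and 26.9 RPKM in Control livers and between 15.6 and 18.9 RPKM in EtOH livers. The groups did not overlap, but after quantile normalization the log2 fold change was -0.20 (SE 0.08, limma adjusted p = 0.23). Arpc4 was called lower by limma voom on recovered reads and in the fit without normalization, and in no other setting. Neither of these scales the livers beyond their total reads. Of the 10 measured activators of the complex none was called by limma or by limma voom, and 3 had an unadjusted p below 0.05. The smallest p among them was that of Wasf2, a WAVE protein that switches the complex on, at 3.69 ± 1.66 RPKM in Control and 4.92 ± 0.604 RPKM in EtOH livers (SD over 6 animals each, log2 fold change 0.55, SE 0.25, limma adjusted p = 0.30).

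Pfn1, profilin, which exchanges the nucleotide on actin monomers and delivers them to growing ends, was close to the actins in level. It ranged from 156 to 204 RPKM in Control livers (median 165) and from 105 to 145 RPKM in EtOH livers (median 141). The groups were apart, by a gap that is narrow beside their ranges. Means were 170 ± 17.4 and 134 ± 15.1 RPKM (SD, n = 6 each). In the quantile-normalized comparison Pfn1 was not called (log2 fold change -0.19, SE 0.06, limma adjusted p = 0.13), and without normalization it was at -0.34 (adjusted p = 0.051), against the shift of -0.14 that abundant transcripts shared.

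Cfl1, cofilin, which severs and depolymerises filaments, ranged from 74.5 to 99.3 RPKM in Control livers (median 79.0) and from 64.7 to 84.5 RPKM in EtOH livers (median 73.1). The groups overlapped. The means were 81.4 ± 9.18 and 73.6 ± 7.72 RPKM (SD, n = 6 each). The log2 fold change was 0.02 (SE 0.07, 95% interval -0.15 to 0.18, limma adjusted p = 0.94) after quantile normalization, and its sign turned to -0.05 with median scaling and to -0.14 without normalization, so no direction can be given. Per unit of Actg1, Cfl1 stood at 0.424 to 0.506 in Control livers and at 0.716 to 1.06 in EtOH livers. Pfn1 stood at 0.881 to 1.04 of Actg1 in Control livers and at 1.21 to 1.79 in EtOH livers. Against Actb the groups overlapped for Pfn1, at 0.725 to 0.908 in Control and 0.734 to 0.995 in EtOH livers, and for Cfl1, at 0.355 to 0.442 and 0.430 to 0.577. These 4 ratios were formed after the levels were seen and were not tested, and they rest on the uncertain split of reads between Actb and Actg1.

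The thymosins, small peptides that sequester actin monomers, were low and variable. Tmsb4x lay between 6.82 and 13.7 RPKM in Control livers (median 10.8) and between 8.92 and 13.6 RPKM in EtOH livers (median 11.9), with overlapping groups. Its log2 fold change was 0.27 (SE 0.15, 95% interval -0.07 to 0.60, limma adjusted p = 0.46). Only 15 to 54 reads per liver stood behind these values. The table puts this row on chromosome 10, at chr10:48751254-48752131, a span of 878 bases, whereas RefSeq puts Tmsb4x on chromosome X, so the row may not measure the gene of that name.

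Tmsb10 lay between 15.3 and 29.4 RPKM in Control livers (median 17.3) and between 14.0 and 24.1 RPKM in EtOH livers (median 19.2). The groups overlapped, and the log2 fold change was 0.13 (SE 0.18, 95% interval -0.25 to 0.51, limma adjusted p = 0.74). Its sign turned to -0.02 without normalization. The ratio of Tmsb10 to Tmsb4x differed by -0.17 on the log2 scale, with a 95% interval from -0.85 to 0.50 (two-sided exact permutation test, p = 0.59; adjusted over 3 pairs, p = 0.59). The values of Tmsb10 rest on 21 to 55 reads per liver, and changes within these intervals are not excluded.

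**Figure D3:**
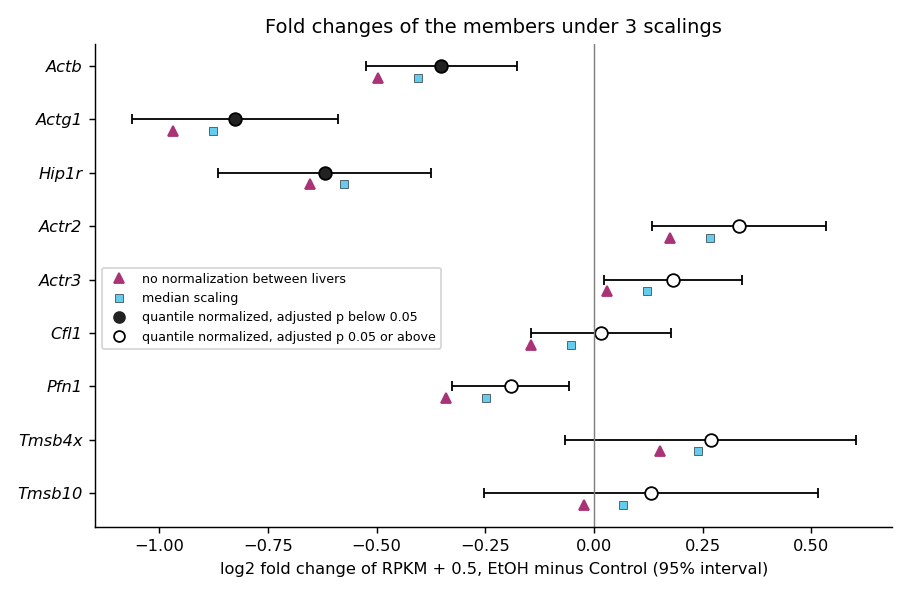
Log2 fold change of RPKM + 0.5, EtOH minus Control (horizontal axis), of the 9 members; circles with 95% intervals are quantile-normalized limma estimates, filled where called, and triangles and squares are the estimates without normalization and with median scaling. Actg1, Hip1r and Actb lie below 0 under all 3 scalings, and Cfl1 and Tmsb10 change sign between them.

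Per length, the order of the members in Control livers was Actb, Actg1, Pfn1, Cfl1, Actr2, Actr3, Tmsb10, Tmsb4x and Hip1r. The ranges of neighbours overlapped for Actb and Actg1, for Actg1 and Pfn1 and for Actr3 and Tmsb10. Within a liver Actb was above Actg1 in 6 of 6 Control livers, and Actg1 above Pfn1 in 4 of 6. In EtOH livers Pfn1 stood before Actg1, with Pfn1 above Actg1 in 6 of 6 livers, and the rest of the order was the same. There Actg1 was above Cfl1 in 5 of 6 livers, and their ranges overlapped. Between livers of a group, the coefficient of variation of RPKM was lowest for Actb in Control livers, at 5.75%, and highest for Tmsb10, at 27.2% in Control and 19.9% in EtOH livers.

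Control animal 3 was the liver with the highest Actg1, Cfl1, Pfn1 and Tmsb10 of all 12, and it had the lowest Actr2. Without it Actg1 was still called (log2 fold change -0.80, limma adjusted p = 0.0072), and Actb was at -0.37 with an adjusted p of 0.051.

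The wider actin cytoskeleton was followed in 148 further genes in 12 lists, of which 121 had a row and 119 were above 0 in at least 1 liver. Of these 119, 1 was called, and it rose: Msn, moesin, which anchors filaments to the plasma membrane. Of all transcripts 2.42% were called. Other settings called 0 to 6 of the listed genes, among them 3 without normalization, 3 by limma voom and 6 with summed rows. The share of all transcripts called in those settings is not given here, so these counts have no background beside them. An unadjusted p below 0.05 was reached by 26, or 21.8%, of which 6 were lower and 20 higher, beside 15.5% of all transcripts. The median log2 fold change of the 119 was 0.05, with 70 of them above 0. A p above the threshold does not show that a gene was unchanged.

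Msn lay between 4.43 and 7.88 RPKM in Control livers (median 5.55) and between 6.91 and 10.1 RPKM in EtOH livers (median 8.05). The groups overlapped. The mean rose from 5.76 ± 1.14 to 8.35 ± 1.33 RPKM (SD, n = 6 each; log2 fold change 0.60, SE 0.13, limma adjusted p = 0.036). The call was lost without normalization (adjusted p = 0.057), with limma voom (0.068), and in the unmoderated pooled test (0.063). When livers were omitted singly, the limma adjusted p ranged from 0.017 to 0.082: the call held without Control animal 1, Control animal 6 or EtOH animal 4 and was lost without any one of the other 9.

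Among cross-linkers and bundlers, 12 were measured and none was called by limma; 1 had an unadjusted p below 0.05 on the lower side and 3 on the higher side. The smallest p was that of Sptbn1, a spectrin of the cortical actin net, at 19.5 ± 3.21 RPKM in Control and 23.8 ± 2.18 RPKM in EtOH livers (SD over 6 animals each, log2 fold change 0.44, SE 0.11, limma adjusted p = 0.057). Limma voom on recovered reads called Pls3, the filament bundler plastin 3, lower, and Iqgap1, a scaffold that cross-links filaments, higher. The only other setting that called Pls3 was the fit without normalization. In the quantile-normalized comparison Pls3 had a log2 fold change of -0.26 (SE 0.08, limma adjusted p = 0.12). Iqgap1 was at 1.58 ± 0.834 RPKM in Control and 3.08 ± 0.710 RPKM in EtOH livers (SD over 6 animals each, log2 fold change 0.88, SE 0.24, limma adjusted p = 0.079).

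Of the 16 measured monomer-binding and severing proteins besides the members, none was called by limma or limma voom; 2 were lower and 1 higher at an unadjusted p below 0.05. Coro2a, a coronin, had the smallest p, at 0.470 ± 0.288 RPKM in Control and 0.110 ± 0.141 RPKM in EtOH livers (SD over 6 animals each, log2 fold change -0.68, SE 0.21, limma adjusted p = 0.12), on 21 and 6 reads in all. Among 12 capping proteins none was called by either tool, and 1 passed an unadjusted p of 0.05. It was Eps8, a capping and bundling protein, which was higher in every EtOH liver, at 0.601 to 1.27 RPKM, than in any Control liver, at 0.271 to 0.521 RPKM, on 25 reads in Control and 69 in EtOH livers in all (log2 fold change 0.46, SE 0.15, limma adjusted p = 0.15).

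Of 8 formins and other nucleators none was called by limma or limma voom, and 1 had an unadjusted p below 0.05, Diaph3, on 3 reads in Control and 19 in EtOH livers in all (log2 fold change 0.37, SE 0.10, limma adjusted p = 0.093). Of 13 tropomyosins and actomyosin genes none was called by either tool, and 3 were higher at an unadjusted p below 0.05. Cald1, caldesmon, which holds tropomyosin-coated filaments, had the smallest p, at 85.1 ± 11.6 RPKM in Control and 98.2 ± 4.15 RPKM in EtOH livers (SD over 6 animals each, log2 fold change 0.37, SE 0.12, limma adjusted p = 0.12). The muscle actins Acta1, Actc1 and Actg2 were at means under 1 RPKM in both groups and none was called by either tool, with none at an unadjusted p below 0.05. Actbl2 was at 0 in all livers. The smallest p of that list was that of Actc1, on 1 read in Control and 6 in EtOH livers in all (log2 fold change 0.21, SE 0.14, limma adjusted p = 0.51).

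Srf, whose promoter with 2 CArG boxes is printed above, ranged from 3.50 to 6.05 RPKM in Control livers (median 4.12) and from 2.32 to 4.03 RPKM in EtOH livers (median 3.01). The groups overlapped, and it was not called (log2 fold change -0.38, SE 0.17, unadjusted p = 0.043, limma adjusted p = 0.30). Neither Srf nor Mkl1, its coactivator that senses actin monomers, was called by limma or limma voom.

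**Figure D4:**
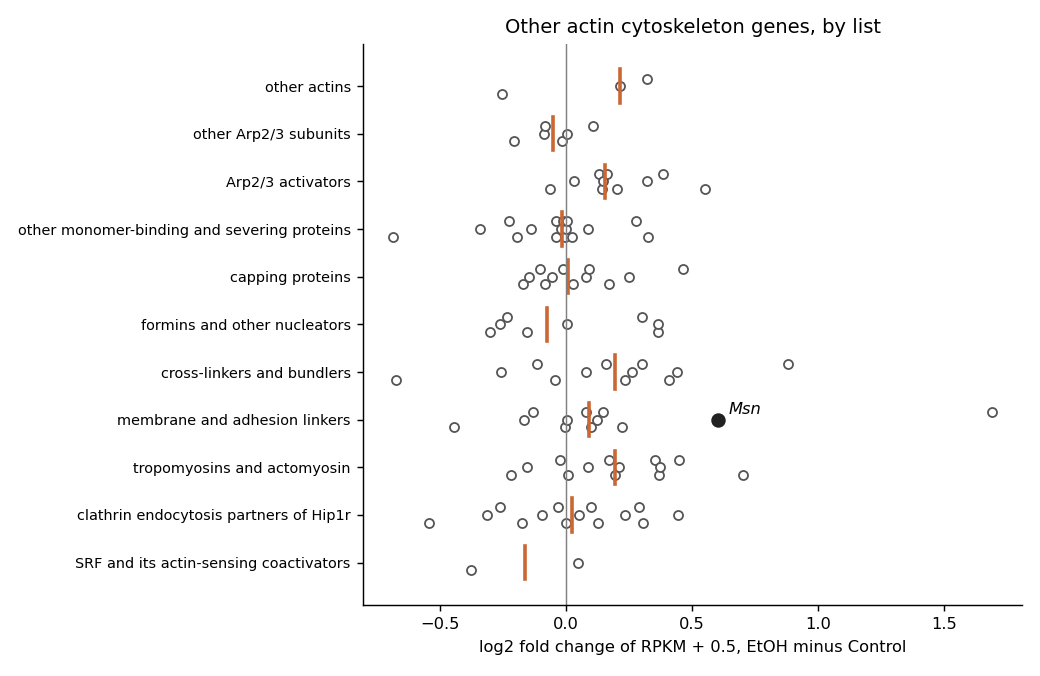
Log2 fold change of RPKM + 0.5, EtOH minus Control (horizontal axis), of 108 measured genes in 11 of the 12 lists (rows); each circle is 1 gene, the filled one was called, and the short vertical bar is the list's median. The circles lie on both sides of 0 in every list, and Msn, at 0.60, is the 1 gene called.

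Whole liver holds cell types besides hepatocytes. Beside the marker counts that follow, limma called 1.13% of all transcripts higher, and 15.5% reached an unadjusted p below 0.05 in either direction. Of 11 stellate cell markers measured, 3 were called higher, Col1a2, Col3a1 and Hgf. At an unadjusted p below 0.05, 6 were higher and 1 was lower, Ngfr (log2 fold change -0.26, limma adjusted p = 0.31). The summed RPKM of the list was 33.5 to 41.0 in Control livers and 41.6 to 56.6 in EtOH livers. Col3a1 weighed most in it, with a mean of 19.5 of 36.7 RPKM in Control livers. Of 8 Kupffer cell markers 3 were called higher, Cd163, Clec4f and Vsig4, with sums of 170 to 256 RPKM in Control and 224 to 283 RPKM in EtOH livers. Of 9 markers of other leukocytes 1 was called higher, Lcp1, with sums of 12.0 to 24.1 RPKM in Control and 22.7 to 33.7 RPKM in EtOH livers.

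Of 3 endothelial markers 1 was called higher, Cdh5, with sums of 24.5 to 31.3 and 27.8 to 38.6 RPKM. Of 3 cholangiocyte markers none was called by limma or limma voom, with none at an unadjusted p below 0.05, and the sums were 4.27 to 8.16 and 3.69 to 7.67 RPKM. Of the smooth muscle markers 1, Smtn, was measured, at 1.40 to 2.50 RPKM in Control and 0.990 to 3.83 RPKM in EtOH livers, and it was not called. Of 5 hepatocyte markers 1 was called higher, Cps1. Quantile normalization gave Alb and Tf the same mean in both groups, so neither could be called. By limma voom their log2 fold changes were 0.18 (adjusted p = 0.25) and -0.0055 (adjusted p = 0.94). The sums of the 5 overlapped, at 81305 to 108379 and 89188 to 114713 RPKM, and Alb made up most of them. None of the measured markers was at 0 in all 12 livers. The marker sums that moved with the groups were higher in EtOH livers, where Actg1, Actb and Hip1r were lower and Msn was higher; their part in these results was not tested. Limma voom on recovered reads, with no further normalization between livers, called 3 of the 9 markers named as called higher, Col1a2, Vsig4 and Cps1. It did not call Col3a1, Hgf, Cd163, Clec4f, Lcp1 or Cdh5. The share of all transcripts that limma voom called is not given here.

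**Figure D5:**
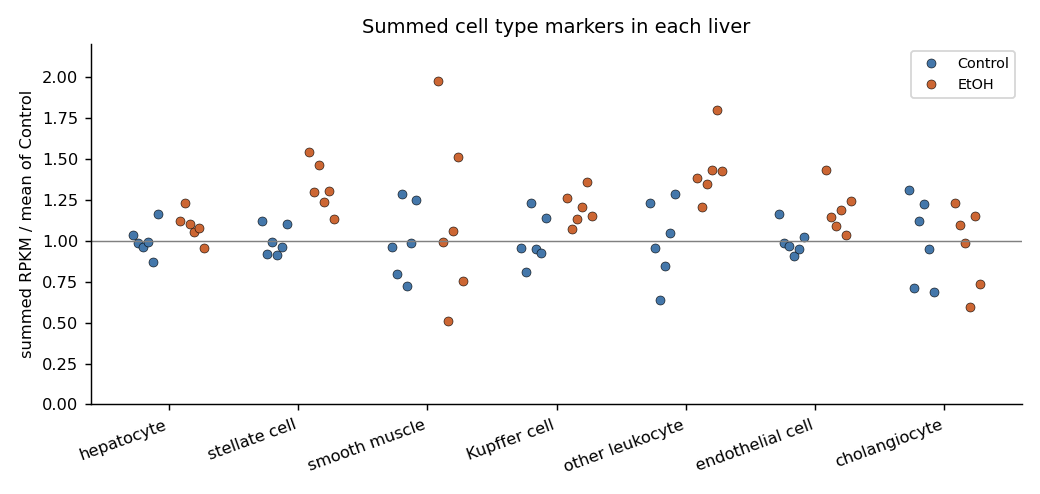
Summed RPKM of the markers of 7 cell types in each liver, divided by the mean of the Control livers (vertical axis, starting at 0); points are livers, 6 Control and 6 EtOH, and the line marks the Control mean. Stellate cell sums do not overlap between the groups, at 33.5 to 41.0 RPKM in Control and 41.6 to 56.6 RPKM in EtOH livers, and the sums of the other 6 types do.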

How the data were processed

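Poly(A) RNA of 12 livers was sequenced by the study in paired-end reads of 101 nucleotides. Reads were mapped by the authors in CLCbio Genomics Workbench 4.9, who deposited, for each transcript and liver, an RPKM value with no further normalization. The authors also deposited columns of their own comparison (fold change, test statistic, p-value, FDR), which were not used. The 12 RPKM columns were matched to animals by name.

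Whole reads were recovered as the smallest whole numbers in the ratios of a transcript's depth-corrected RPKM values (tolerance 0.01 of a read, 100% of 21718 transcripts). A transcript above 0 in 1 liver alone always gets 1 read by this rule, whatever its true count, so the 100% includes transcripts that could not fail. At 0 in all livers were 12673 further transcripts. The main comparison used limma 3.58.1 in R 4.3.3 with a trend of variance on mean, on log2(RPKM + 0.5) after quantile normalization. The step was tested on reads simulated for transcripts with a Control mean above 0, all given the same biological spread between livers. Of 200 transcripts changed 2-fold, all with a Control mean of at least 1 RPKM, 135 were recovered, with 8 calls among the others. These figures do not carry over to genes that are lower or vary more. Ratios of related genes were compared by exact permutation, adjusted over 3 pairs. The other steps ran in Python 3.11.15 (scipy 1.17.1, numpy 2.4.6, pandas 2.3.3).

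Members and lists were chosen with earlier results of these data known. All members are named; of each list the called genes are named, and otherwise the gene with the smallest p. The genes of 1 list are not reported here singly, though they stay in the counts over all lists. Genes that 1 tool alone called were named after their values were seen. Alternatives were pseudocounts of 0.1 and 1, no normalization, median scaling, square-root values, an unmoderated pooled test, a minimum mean of 0.1 or 1 RPKM, no trend, limma voom on recovered reads, summed rows, a block by animal number and each liver left out in turn. Equal animal numbers did not mark shared deviations (correlations of -0.067 to 0.032).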

Additional observations from a re-analysis of the deposited data

Results flagged for a closer look

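In groups of 6 livers, a liver was singled out when its gap to the nearest other liver made up more of the group's range than Dixon's test allows at 95%. Over 24 such groups (9 members and 3 ratios, in 2 treatments) 4 values were singled out, where chance gives about 1 in 20 groups. Of them, 3 were values of Control animal 3: its Actg1 at 216 RPKM (next 177), its Cfl1 at 99.3 RPKM (next 81.9) and its Pfn1 at 204 RPKM (next 167) were each the highest. The other was the Pfn1 of EtOH animal 2, the lowest at 105 RPKM (next 132). Without Control animal 3 the log2 fold change of Pfn1 was -0.17 (limma adjusted p = 0.23), and without EtOH animal 2 it was -0.14 (limma adjusted p = 0.18).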

How the results depend on the processing

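Actg1 was called lower in all 24 alternatives, Hip1r in 23 and Actb in 10. Among the members, the replicate block by animal number left 1 call, Actg1 (limma adjusted p = 0.049), with Hip1r at 0.095 and Actb at 0.066; it lost the call of Msn too (0.054). With pairs by animal number, the log2 ratio of Actg1 to Actb differed by -0.47 (exact sign-flip permutation test, p = 0.031). This p is the smallest that 6 pairs of livers allow and was not adjusted over the 3 ratios. Equal animal numbers do not correlate. Actb also missed the threshold without a variance trend (0.071) and in the unmoderated pooled test (0.075). With each liver left out in turn, 2 to 3 members and 0 to 4 of the listed genes were called. Of the listed genes, 3 were called without normalization, 3 by limma voom, 2 at a mean of at least 0.1 RPKM, 3 at 1 RPKM, 6 with summed rows and 0 in the pooled test and with the block. The shares of all transcripts called in those settings are not given here. The log2 ratio of Actr3 to Actr2 differed by -0.20 to -0.11 with each liver left out. Without Control animal 5 its exact permutation p was 0.0498, not adjusted over the 3 ratios. The sign of Cfl1 turned without normalization (-0.14), with median scaling (-0.052), with limma voom (-0.12) and without Control animal 2, EtOH animal 1 or EtOH animal 3 (range with each liver left out -0.033 to 0.057), and that of Tmsb10 without normalization (-0.023) and with limma voom (-0.034). The cause was not tested. The thymosins rest on 15 to 55 reads per liver.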
